A study of Mus musculus with 12 samples.

Results

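The microRNA miR-151 was followed through 12 small RNA libraries of mouse serum. It is represented by 4 of the 1340 mature miRNA rows counted in the series: miR-151-3p (MIMAT0000161) and miR-151-5p (MIMAT0004536) among 874 mouse rows, and miR-151a-3p (MIMAT0000757) and miR-151a-5p (MIMAT0004697) among 466 human rows. The rows were taken by accession, and a library that did not list a row was given a count of 0. They were selected on their measured counts, with the differences between sera before and after tumour cell injection already known. Values of that contrast are therefore given as a description, without a test.

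The sera came from 3 female athymic NCr nude mice (mice 1046, 1047 and 1069), aged 4 to 6 weeks at the time of xenografting. SH-SY5Y, an established human neuroblastoma cell line, was implanted under the kidney capsule of each mouse, and blood was taken before injection and 2 weeks after it. RNA from 50 μl of serum was split into an aliquot depleted of long 5′ tRNA fragments with biotinylated DNA probes and streptavidin beads, and an aliquot left undepleted. This gave 4 groups of 3 libraries (before or after injection, depleted or undepleted), in which every mouse served as its own control. No mouse without tumour cells was sampled at the later time among the samples used here, so tumour and elapsed time cannot be told apart.

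A miRNA hairpin is cut into a pair of strands, named 5p and 3p after the arm they come from, and usually one of them is kept in the silencing complex while the other is degraded. miR-151 is an exception in that both strands are known as stable, functional miRNAs. Its gene lies in an intron of the gene for focal adhesion kinase, and miR-151-5p is known to promote migration of hepatocellular carcinoma cells. The mature 5p strand is the same in mouse and human, whereas the 3p strand differs between the species. Reads were mapped without mismatches, so that a 5p read can be counted in both species' tables, while a full-length 3p read free of errors fits one genome only. In GRCm38 (GENCODE M21) the mouse gene Mir151 occupies chromosome 15, 73254815 to 73254882 (minus strand). It falls within Ptk2 (73205102 to 73423280, minus strand) and overlaps none of its annotated exons. The antisense transcript 1700085D07Rik spans the same interval on the plus strand, also without an overlapping exon.

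Depleted libraries held 938706 to 2271549 mouse-table counts and undepleted libraries 21235 to 97183, of which the smallest was the undepleted aliquot of mouse 1069 before injection. The human tables held 1729906 to 3854909 and 34472 to 188479 counts, respectively. No pair of libraries had identical tables. Of 11 marker miRNAs of red cells, platelets and myeloid cells, liver and muscle that had been listed by name, only mmu-miR-16-5p (MIMAT0000527), abundant in red cells, is paired with an accession in the sources used here. It made up 5.62% to 17.8% of mouse-table counts.

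First, the level of each strand was determined in the mouse tables. In depleted libraries drawn before injection, miR-151-3p was counted 4095, 5505 and 2729 times in mice 1046, 1047 and 1069, and after injection 11833, 12282 and 19303 times. In CPM (counts scaled to a library total of 1000000) these were 3037, 3023 and 2907 before and 6643, 7053 and 8498 CPM after injection. All sera drawn after injection thus lay above all sera drawn before. The mean was 2989 ± 71 CPM before and 7398 ± 974 CPM after (SD, n = 3 each), and the fold differences within mice 1046, 1047 and 1069 were 2.19, 2.33 and 2.92.

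The 5p strand was much rarer. It was counted 304, 405 and 290 times in depleted libraries before injection and 1053, 1085 and 1550 times after it. This corresponded to 225, 222 and 309 CPM before and 591, 623 and 682 CPM after injection, again without overlap. The mean was 252 ± 49 CPM before and 632 ± 46 CPM after (SD, n = 3 each), and the within-mouse folds were 2.62, 2.80 and 2.21. In rank among all mouse rows, miR-151-3p stood between 35 and 42 before and between 20 and 27 after injection, and miR-151-5p between 106 and 112 before and between 84 and 93 after.

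The undepleted aliquots of the same sera gave the same order with far fewer counts. For miR-151-3p there were 348, 368 and 60 counts before and 441, 429 and 513 after injection. These were 3581, 4089 and 2826 CPM before and 6472, 8257 and 10376 CPM after. For miR-151-5p there were 21, 20 and 6 counts before and 33, 25 and 30 after, or 216, 222 and 283 CPM before and 484, 481 and 607 CPM after. Both strands were higher in every serum drawn after injection than in any drawn before. Since both aliquots share a serum, this is no independent repeat.

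**Figure D1:**
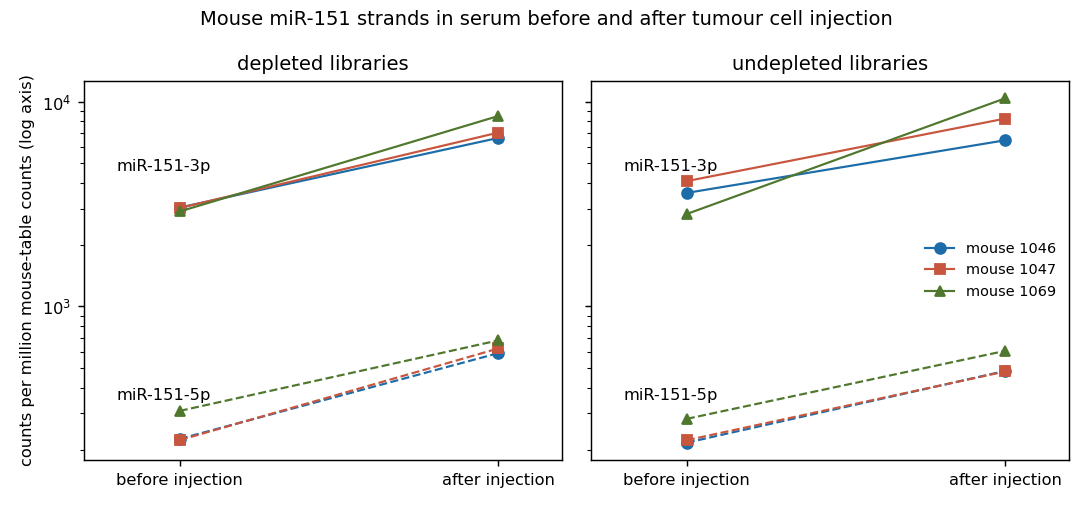
Level in CPM of the mouse tables (log axis) of miR-151-3p (solid lines) and miR-151-5p (dashed lines) before and after injection, with 1 line per mouse, in depleted (left) and undepleted (right) libraries. In depleted libraries the 3p strand runs from 2907 to 3037 before to between 6643 and 8498 after injection, and the 5p strand lies about an order of magnitude lower at both times.

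In the DESeq2 fit of depleted libraries, the log2 difference after against before injection was 0.97 (standard error 0.25) for miR-151-3p and 1.01 (standard error 0.25) for miR-151-5p. In undepleted libraries it was 1.02 (standard error 0.27) and 0.84 (standard error 0.40), respectively. On the CPM scale, to which no prior is applied, the depleted differences were 1.30 and 1.34. The DESeq2 fit of depleted libraries without the prior gave 1.03 and 1.07, so most of the gap to CPM remained when the prior was dropped. In depleted libraries the CPM scale moved by 0.13 between the time points, relative to size factors of depleted and undepleted libraries together. The fit of depleted libraries had its own size factors, so the 0.13 does not measure its gap to CPM. Without mouse 1069 the DESeq2 difference of 3p was 0.76 in depleted and 0.66 in undepleted libraries. Lack of overlap was not particular to miR-151: in CPM, 26.3% of 414 mouse rows in depleted libraries and 23.0% of 165 in undepleted ones had all sera after injection above all sera before.

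The only listed marker that could be analysed, mmu-miR-16-5p, was lower after injection. Further red cell markers were not analysed, so a change in red cell content was not tested. mmu-miR-16-5p accounted in depleted libraries for 12.0% ± 1.0 of the mouse-table counts before and 6.69% ± 1.04 after injection, and for 16.6% ± 1.8 and 8.96% ± 1.65 in undepleted libraries (SD, n = 3 each). All sera after injection lay below all before, as did 8.94% of mouse rows in depleted and 13.9% in undepleted libraries. Its DESeq2 log2 difference was -1.07 (standard error 0.25) in depleted libraries. Counts are relative, so part of a higher share of miR-151 can come from a lower share of abundant miRNAs. How far this bears on the miR-151 strands was not tested. In serum, more release per cell and more releasing cells cannot be told apart either.

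Next, the strands were compared with each other within libraries, a ratio that needs no normalization between libraries. In depleted libraries there were 13.5, 13.6 and 9.41 counts of 3p for each count of 5p before injection in mice 1046, 1047 and 1069. After injection there were 11.2, 11.3 and 12.5. The first serum of mouse 1069 had the lowest ratio, and the other sera spread over a narrow range. The log2 ratio of 5p to 3p was -3.58 ± 0.30 before and -3.54 ± 0.08 after injection in depleted libraries, and -3.80 ± 0.51 and -3.96 ± 0.20 in undepleted libraries (SD, n = 3 each). The time points overlapped in both kinds of library, and a change in the ratio was not detectable beyond the spread between mice.

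The depletion contrast was tested on the understanding that the rows were selected on the time contrast. The selection had all 12 libraries in view, so the test is not fully independent of it. Depleted aliquots had relatively more 5p than their undepleted counterparts in 5 of 6 sera. The differences in log2 ratio were 0.27, 0.40 and -0.01 before and 0.23, 0.57 and 0.44 after injection in mice 1046, 1047 and 1069. Their mean was 0.32 ± 0.20 (SD, n = 6 sera), or 1.25-fold, and did not pass an exact two-sided sign-flip permutation test (p = 0.0625, where 6 sera can give 0.03125 at the smallest). The exception, the first serum of mouse 1069, rests on 6 counts of 5p and 60 of 3p in its undepleted aliquot. The test takes the 6 sera as independent, although they came from 3 mice. The ratios had 0.5 added to each count. Without this addition the difference was positive in 6 of 6 sera, with a mean of 0.36 (exact sign-flip permutation test, p = 0.03125), so the call hangs on this one sparse library.

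**Figure D2:**
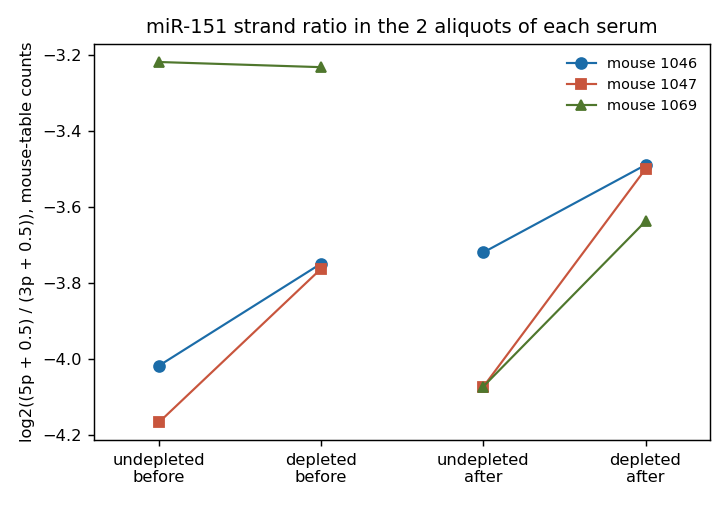
The log2 ratio of mouse-table miR-151-5p to miR-151-3p counts, with 0.5 added to each, in the undepleted and depleted aliquot of every serum, joined by a line. Lines go up in 5 of the 6 sera by 0.23 to 0.57, and that of mouse 1069 before injection is flat.

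Tested one by one across all mouse rows, neither strand passed the limits for a change by depletion, a 2-fold difference with a DESeq2 adjusted p-value below 0.05. Of the 383 mouse rows tested 8.36% passed, 3.39% as lower in depleted libraries. miR-151-3p had 1473 ± 673 normalised counts in depleted and 1847 ± 907 in undepleted libraries (SD, n = 6 each), a log2 difference of -0.33 (SE 0.18, adjusted p = 0.270 by DESeq2). In 6 of 6 sera the depleted aliquot held less. When the aliquots were paired by serum the spread between sera dropped out, and the difference was -0.32 (SE 0.07, adjusted p = 4.81e-05 by DESeq2), under the 2-fold limit. With TMM factors, another way to scale the libraries, it was -0.08 (SE 0.20, adjusted p = 0.878 by DESeq2), so that the deficit depends on the scaling. miR-151-5p had 124 ± 56 normalised counts in depleted and 118 ± 49 in undepleted libraries (SD, n = 6 each). Its log2 difference was 0.07 (SE 0.16, adjusted p = 0.869 by DESeq2), and 0.31 with TMM factors (SE 0.16, adjusted p = 0.207 by DESeq2).

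To see which circulating miRNAs follow miR-151 most closely, mouse rows with at least 4 counts in every library were correlated with each strand over the 12 libraries, after the mean of depleted and of undepleted libraries had been removed. Among 109 such rows, MIMAT0000141 was closest to miR-151-3p (Pearson's r = 0.99) and MIMAT0000535 to miR-151-5p (r = 0.95). The 2 strands of miR-151 correlated with each other at 0.93, which put 5p at rank 9 in likeness to 3p, and 3p at rank 5 in likeness to 5p. These libraries share sera and the time contrast, so the values are a description. The sources used here do not pair these accessions with names.

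The same contrast was then read from the human tables, where reads of the implanted cells would be found. Human miR-151a-3p was counted 2, 0 and 0 times in the first and 10, 22 and 111 times in the second depleted sample of mice 1046, 1047 and 1069. Mouse 1069 held most of the counts, and every serum after injection exceeded every serum before. The 2 early counts precede the implanting of human cells, so they cannot come from cells the mouse carried at that time. How many of the later counts are of the same kind was not tested. In undepleted libraries there was a single count, in mouse 1047 after injection. In depleted libraries the order of the time points was the same in CPM. On that scale, all sera after injection lay above all before for 36.8% of the 277 human rows tested there. They lay below for 5.78%, so the order seen here is common on its own. The median difference of these rows was 0.44 in log2 CPM and 0.03 in log2 normalised counts, so the 36.8% holds a shift of the CPM scale.

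As the 3p strand differs between species, the human row can be set against all 3p counts of both tables. The human-table share was 0.0488% in mouse 1046 before injection (95% Wilson interval 0.0134% to 0.178%). It was 0 of 5505 and 0 of 2729 counts in mice 1047 and 1069, which allows shares of up to 0.0545% and 0.110%, taking 3 counts as the limit. After injection the shares were 0.0844% (0.0459% to 0.155%) in mouse 1046, 0.179% (0.118% to 0.271%) in mouse 1047 and 0.572% (0.475% to 0.688%) in mouse 1069. In mouse 1046 the intervals of both time points overlap, whereas in mice 1047 and 1069 the later interval lies above the earlier limit. Intervals and limits cover counting error only, since the reads carry no molecular identifiers.

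**Figure D3:**
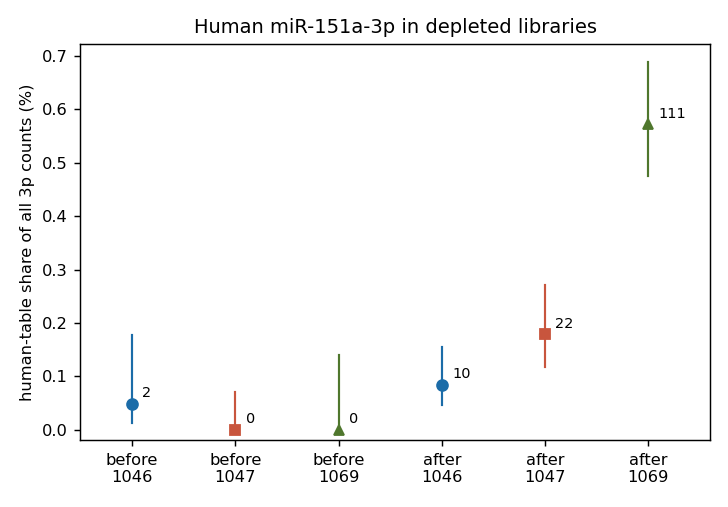
Human-table miR-151a-3p counts as a percentage of all 3p counts of both tables in the 6 depleted libraries, with 95% Wilson intervals and the count beside each point. The 3 points before injection lie between 0 and 0.0488%, those after injection between 0.0844% and 0.572%, with mouse 1069 highest.

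Summed over the 3 depleted libraries of each time point, 2 of 12331 counts of the 3p strand were in the human table before and 143 of 43561 after injection. The ratio of the shares was 20.2 (95% exact counting interval 5.50 to 169), and it rests on the 2 early counts. Without mouse 1069 it was 6.36 (1.62 to 54.8), without mouse 1047 13.2, and without mouse 1046, whose first serum held both early counts, at least 11.5 when 3 counts are taken as the limit for the remaining early sera together. This limit takes the later counts as exact, and the 95% exact counting interval starts at 9.23. The DESeq2 log2 difference, which is pulled towards 0 for a row this low, was 1.91 (standard error 0.49), and 0.67 (standard error 0.37) without mouse 1069. In undepleted libraries 1 of 1384 counts of the 3p strand was in the human table after injection (0.0723%, 95% Wilson interval 0.0128% to 0.408%), and 0 of 776 before, which allows up to 0.387%. The 3-count limit, 0.217% after injection, is meant for libraries without a count and does not bound this share. The 0.328% of the depleted libraries lies inside the Wilson interval of the single count. The count therefore does not separate undepleted from depleted libraries.

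Of the 5p strand, nearly every mouse-table count had a counterpart in the human table. In depleted libraries the human row miR-151a-5p held 271, 374 and 263 counts before and then 1012, 1051 and 1514, against the mouse-table counts given above. The shortfall of the human table was 33, 31 and 27 counts before and 41, 34 and 36 after injection. These are raw counts, and in mice 1046 and 1069 the later library was deeper. In CPM of the mouse table the shortfall was 24.5, 17.0 and 28.8 before and 23.0, 19.5 and 15.8 after injection, with the time points overlapping. As a percentage, the human count was 89.1%, 92.3% and 90.7% of the mouse count before and 96.1%, 96.9% and 97.7% after injection. The mean was 90.7% ± 1.6 before and 96.9% ± 0.8 after (SD, n = 3 each), without overlap. In undepleted libraries, with at most 33 counts, the percentage ranged from 85.0% to 100.0% and the time points overlapped. Over all 12 libraries the human row held 4610 and the mouse row 4822 counts, and it never exceeded the mouse row in any library.

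This shift was compared with that of other human and mouse rows with near-equal counts. They were matched by counts alone, without names or sequences, so a pair need not be the same miRNA. Human and mouse rows were joined where their counts over the 12 libraries differed by at most 15% in sum and at least 500 counts were present, a rule made after the data had been seen. Of 138 joined pairs, 85 were identical in every library. Among the 53 others, the percentage in depleted libraries was higher in all sera after injection than before for 3 pairs (5.66%), one of which was the miR-151 5p strand, and lower for 3. The median difference was 0.00032 percentage points, the range -3.45 to 6.98, and that of the miR-151 5p strand 6.16. Many of these pairs differed by only a few counts in sum, which holds their percentage near 100% at both times. Such pairs had little room to move, whereas the rows of the miR-151 5p strand differed by 4.40%. A place among all 53 therefore says little about how unusual its shift was. Only the pair of human MIMAT0000080 and mouse MIMAT0014856 moved further, by 6.98 percentage points. This comparison uses the contrast with which the rows were chosen and was not tested.

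**Figure D4:**
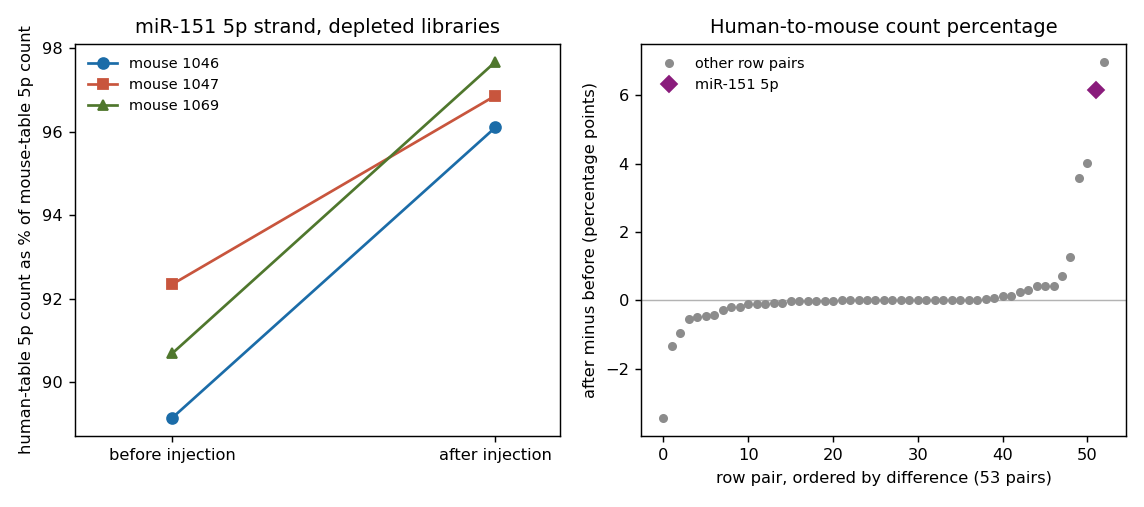
Left, the 5p count of the human table as a percentage of that of the mouse table in depleted libraries before and after injection, by mouse (the axis does not start at 0). Right, the mean difference in this percentage between time points for the 53 pairs of human and mouse rows with near-equal but not identical counts, in ascending order. Most pairs lie near 0, many of them differing by only a few counts and so with little room to move. The miR-151 5p strand is second from the top at 6.16.

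Within the human tables miR-151a-5p had 104, 97.0 and 152 CPM before and 360, 389 and 477 CPM after injection in depleted libraries. The mean was 118 ± 30 and 409 ± 61 CPM (SD, n = 3 each). In undepleted libraries it had 95.5, 98.6 and 174 CPM before and 327, 290 and 397 CPM after, and 29.0% of the 131 human rows tested there showed the same lack of overlap, with 9.16% in the opposite order. The DESeq2 log2 differences were 1.18 (standard error 0.24) and 0.95 (standard error 0.40). In CPM the depleted log2 difference was 1.81, and the DESeq2 fit without the prior gave 1.26. The CPM scale of the human tables moved by 0.49 between the time points in depleted libraries, relative to size factors of all 12 libraries. The CPM values hold a shift of this kind, but the fit of 6 libraries had its own size factors. As the mouse and human rows of the 5p strand largely hold the same counts, they are not separate evidence.

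Depletion changed neither human row by the rule above, which 5.56% of 414 tested human rows met, 2.17% as lower in depleted libraries. The log2 difference of miR-151a-5p was 0.14 (SE 0.17, adjusted p = 0.819 by DESeq2). That of miR-151a-3p, 0.34 (SE 0.62, adjusted p = 0.847 by DESeq2), is set by the prior on fold changes, as the undepleted libraries held 1 count in all.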

How the data were processed

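Small RNA libraries (TruSeq, 15 PCR cycles) of 6 mouse sera, each with and without depletion of long 5′ tRNA fragments, were analysed. The authors deposited raw read counts per mature miRNA, in a mouse and a human table for each library. Per the labels and the study's methods, adaptors were removed with cutadapt 1.8.1, reads were quality filtered with the FASTX-Toolkit, mapped with Bowtie 1.1.2 without mismatches (GRCm38/mm10 and GRCh37/hg19) and assigned to miRBase coordinates. A read can thus enter both tables, and reads with A-to-I editing, known for the miR-151 precursor, would be lost. How reads with several loci were counted is not given in the sources used here. Rows without reads are not listed and were set to 0.

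Members and lists were chosen with earlier results of these data known. DESeq2 1.42.0 (R 4.3.3), the study's tool, was fitted on all rows: all 12 libraries with time point as covariate for depletion, and 6 libraries per fit for the description of time points, with median-of-ratios size factors and the zero-centred prior on fold changes. A change had to be 2-fold or more, with p-values adjusted by Benjamini-Hochberg below 0.05. The DESeq2 fit for depletion was tried on simulated data, and the sign-flip test on simulated independent values. The fits of the time points and the alternative fits were not. Ratios, intervals and exact permutation tests were computed with SciPy 1.17.1. Replicates are separate mice within a group, whereas the depletion contrast used 6 sera of 3 mice and took them as independent. The aliquots of a serum are paired by the labels, and their deviations from the group means correlated at 0.43 to 0.62 over 115 rows. Named were the 4 members, mmu-miR-16-5p and the rows closest to each strand, of which only the first is printed. Related miRNAs (miR-28a, miR-708, human miR-151b), other strand pairs and further markers were planned but not analysed here, since accessions could not be paired with names. Alternatives were edgeR 4.0.16, TMM factors, a filter on low counts, a replicate block, no prior, single time points and leaving out each mouse.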

Additional observations from a re-analysis of the deposited data

How the results depend on the processing

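Neither strand was called changed by depletion under any alternative tried, in either table. With the serum as a replicate block, 27 mouse and 23 human rows were changed by depletion (32 and 23 without it), and the block changed no call of a member by the 2-fold rule; on the adjusted p-value alone it moved miR-151-3p past the threshold (4.81e-05), as did leaving out mouse 1069 (DESeq2 adjusted p = 0.0114), while the other alternatives gave 0.247 to 0.901. Its log2 fold change stayed negative in all of them. With only sera before injection, 17 mouse and 12 human rows were changed by depletion. Leaving out 1 mouse gave 19 to 33 mouse and 17 to 25 human rows. TMM factors turned the split of changed mouse rows from 19 higher and 13 lower into 32 and 10, and edgeR into 34 and 10. The depletion estimate of human miR-151a-3p turned to -0.26 without the prior, -0.29 in sera before injection and -0.043 without mouse 1069 (0.46 without mouse 1047). With a pseudocount of 0 the strand ratio difference (0.36) passed the exact sign-flip permutation test; unpaired, with a pseudocount of 1, thinned to 21235 counts per library or with the 3p counts of both tables summed it did not. Without 1 mouse it was 0.23 to 0.37, where 4 sera cannot give an exact permutation p under 0.125. That value was reached without mouse 1069, with 4 of 4 sera positive. Single time points, with 3 sera, cannot go under 0.25.

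For the time points, paired by mouse as a block, the depleted log2 differences were 0.95 for miR-151-3p and 0.99 for miR-151-5p. The time points of one mouse did not deviate together (correlations of -0.45 to 0.05). In undepleted libraries, dropping the prior gave 1.03 for miR-151-5p and 1.17 for human miR-151a-5p, and leaving out 1 mouse 0.60 to 0.84 and 0.72 to 0.88. Human miR-151a-3p in depleted libraries reached 5.13 with edgeR and 5.31 without the prior, values set by 2 early counts, and 0.67 to 2.31 without 1 mouse. On the CPM scale, added after the data had been seen, the depleted differences were 1.30, 1.34 and 1.81 for mouse 3p, mouse 5p and human 5p, and the undepleted ones of mouse and human 5p 1.13 and 1.51. The human 3p share ratio (20.2) depended on its denominator: 67.3 per human-table count and 18.1 per human 5p count (same 3p counts). It was 6.36 without mouse 1069 and 13.2 without mouse 1047. Without mouse 1046 no count was left before injection, and the ratio has no upper limit.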
